A study of Mus musculus with 22 samples.

Results

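The genes described here mark the D2 projection neurons of the striatum, the neurons that carry the dopamine receptor Drd2. They were taken as a list of 8 symbols, Drd2, Adora2a, Penk, Gpr6, Gpr52, Sp9, Plxdc1 and Grik3, of which 7 had a row among the 55341 gene symbols of the count tables. Gpr52 was not analysed here. The mRNA was collected from mice in which neurons expressing the other dopamine receptor, Drd1, carry an EGFP tag on the ribosomal protein Rpl10a. The question of the series is how translation in these D1 neurons differs in mice mutant for Fmr1, the gene of fragile X syndrome. The tag was placed in Drd1-expressing neurons and not in D2 neurons, so the level of these 7 genes in the pulldown is read as its background. That reading was not tested.

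The 22 libraries fall into 4 groups. KO_IP held the pulldowns (IP) of 5 Fmr1 mutant animals, numbers 2, 3, 9, 10 and 11. WT_IP held the pulldowns of 6 wild-type animals, numbers 1, 4, 12, 13, 14 and 20. KO_Total and WT_Total were the input lysates of the same animals, taken before the antibody was added. All 11 animals expressed the tag in Drd1-expressing neurons, so none of the groups is without it and none shows a pulldown from untagged striatum. The labels give no age, sex, strain or litter. The tissue is whole striatum, so a lower level in input could reflect fewer cells of a type or less RNA per cell, and these cannot be told apart.

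Striatal projection neurons fall into a D1 class and a D2 class that lie intermingled and are much alike in shape. D1 neurons express Drd1 with the peptide precursors Tac1 and Pdyn, and project directly to the output nuclei of the basal ganglia. D2 neurons express Drd2 with the adenosine receptor Adora2a and the enkephalin precursor Penk, and project to the external pallidum. Drd2 couples to inhibitory G proteins and lowers cAMP, while Adora2a couples to Golf and raises it, so the 2 receptors act against each other in the same cell.

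The opioid precursors of the 2 classes are shown by their coding sequence because they encode closely related peptides and yet lie on opposite sides of the pulldown. In the GENCODE vM21 transcripts, the Penk reading frame held 7 enkephalin units, 6 of Met-enkephalin and 1 of Leu-enkephalin. The Pdyn reading frame held 3 units, all of Leu-enkephalin. In the 4 units below the capitals mark the enkephalin codons and the small letters are the flanking bases, which encode basic residues.
Penk 1, Met-enkephalin: aagaagTACGGAGGCTTCATGaaacgg
Penk 3, Met-enkephalin: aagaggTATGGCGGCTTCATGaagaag
Penk 6, Leu-enkephalin: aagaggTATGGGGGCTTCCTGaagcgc
Pdyn 1, Leu-enkephalin: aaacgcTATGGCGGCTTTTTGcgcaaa

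RefSeq's promoter table (GRCm38.p6) held windows of 250 bases before to 50 after the start for 4 of the 7 genes: Drd2, Gpr6, Sp9 and Grik3. They were searched for the cAMP response element, TGACGTCA, which reads the same on both strands, because Drd2, Adora2a and Gpr6 all act on cAMP. The motif was chosen after the windows had been read. It was present in the Gpr6 window alone of the 4, and in 1.79% of the 32851 promoter windows of the table (588 windows). The Gpr6 window, on the minus strand at chr10:41072241-41072540, is printed with the motif in capitals.
Gpr6 promoter: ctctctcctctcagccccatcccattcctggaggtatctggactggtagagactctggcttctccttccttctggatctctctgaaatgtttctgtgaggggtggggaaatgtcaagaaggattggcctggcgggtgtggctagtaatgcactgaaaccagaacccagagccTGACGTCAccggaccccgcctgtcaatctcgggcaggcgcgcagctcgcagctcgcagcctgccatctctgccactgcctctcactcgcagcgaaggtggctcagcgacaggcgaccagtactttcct

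Total counts ranged from 9375611 to 82376192 in IP libraries and from 25164548 to 43276230 in input libraries, so the lowest D2 marker levels in IP rest on few reads. Mitochondrial ribosomal RNA made up 0.420% to 0.904% of an IP library, against 25.1% to 53.2% of an input library. Fmr1 averaged 9.99 ± 1.29 CPM (SD, n = 5) in KO IP against 86.3 ± 12.4 CPM (SD, n = 6) in WT IP, so the libraries follow their genotype labels. In input it averaged 13.2 ± 1.60 CPM in KO and 63.7 ± 4.72 CPM in WT. Levels are given as CPM, each count divided by a library size that TMM adjusted over the 22 libraries, so they are relative to the other mRNAs of a library and not amounts of RNA. Animals 1, 3, 9 and 12 stood apart by mRNA of cortical excitatory neurons: Slc17a7, the vesicular glutamate transporter of those cells, had 33.1 to 61.0 CPM in KO IP of animals 3 and 9 against 0.123 to 0.469 CPM in the other KO IP libraries. In WT IP it had 17.2 to 68.0 CPM in animals 1 and 12 and 0.0466 to 1.31 CPM in the other animals. The main results that rest on these animals are given with and without them.

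All 7 measured D2 markers were lower in IP than in input in both genotypes (edgeR quasi-likelihood test, Benjamini-Hochberg adjusted p under 0.05 over 17311 genes). Of all genes tested in KO 26.4% were called lower and 47.3% in either direction, and in WT 27.8% lower and 49.6% in either direction. The median log2 fold change of the 7 genes, IP over input, was -3.54 in KO and -3.65 in WT, against -0.11 over all genes in each genotype. The receptors and Penk were the most depleted, and Plxdc1 and Grik3 varied most between animals.

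Drd2, on chromosome 9 from 49340627 to 49408177 (GRCm38/mm10, plus strand), encodes the D2 receptor itself. In KO IP it stood at 15.1, 24.4, 17.3, 23.7 and 17.4 CPM in animals 2, 3, 9, 10 and 11, and WT IP ran from 13.2 to 21.4 CPM with a median of 17.6. In KO input it stood at 226, 241, 154, 260 and 255 CPM in the same animals, and WT input ran from 183 to 254 CPM with a median of 235. The highest pulldown lay far below the lowest input in both genotypes, while the KO and WT ranges overlapped in each assay. On the log2 scale, IP over input was -3.54 ± 0.16 (SE) in KO and -3.65 ± 0.15 in WT. The pulldown held 8.80% ± 2.01 (SD, n = 5) of the input level in KO and 8.04% ± 1.57 (SD, n = 6) in WT.

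Adora2a, on chromosome 10 from 75316877 to 75334784 (plus strand), encodes the A2A adenosine receptor. In KO IP it stood at 6.34, 3.73, 5.30, 5.51 and 4.00 CPM in animals 2, 3, 9, 10 and 11, and WT IP ran from 2.06 to 4.80 CPM with a median of 3.35. In KO input it stood at 98.3, 95.2, 61.8, 103.3 and 97.9 CPM, and WT input ran from 83.2 to 99.7 CPM with a median of 93.8. KO animal 9 had the lowest input level of the 11 animals, and the pulldowns of all animals stayed at single-digit CPM. On the log2 scale, IP over input was -4.17 ± 0.20 (SE) in KO and -4.72 ± 0.19 in WT. The share of its input level averaged 5.67% ± 1.92 (SD, n = 5) in KO and 3.67% ± 1.25 (SD, n = 6) in WT, the smallest of the 7 genes over all animals. These shares rest on 65 to 366 reads per KO pulldown and 25 to 457 per WT pulldown.

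Gpr6, on chromosome 10 from 41069977 to 41072285 (minus strand), encodes an orphan receptor that raises cAMP without an added ligand. In KO IP it stood at 2.89, 2.78, 3.11, 2.37 and 1.42 CPM in animals 2, 3, 9, 10 and 11, and WT IP ran from 0.988 to 3.10 CPM with a median of 2.01. In KO input it stood at 36.0, 32.4, 23.6, 38.0 and 43.2 CPM, and WT input ran from 31.6 to 40.1 CPM with a median of 36.6. No pulldown came near an input library. Depletion amounted to a log2 fold change of -3.76 ± 0.24 (SE) in KO and -4.12 ± 0.23 in WT, and the share of the input level was 7.86% ± 3.62 (SD, n = 5) in KO and 5.80% ± 2.61 (SD, n = 6) in WT.

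Penk, on chromosome 4 from 4133531 to 4138819 (minus strand), encodes the enkephalin precursor whose units are shown above. In KO IP it stood at 20.2, 41.4, 25.7, 34.7 and 22.7 CPM in animals 2, 3, 9, 10 and 11, and WT IP ran from 23.7 to 48.2 CPM with a median of 28.1. In KO input it stood at 426, 404, 240, 470 and 396 CPM, and WT input ran from 417 to 626 CPM with a median of 492.9. The log2 fold change was -3.74 ± 0.24 (SE) in KO and -4.01 ± 0.22 in WT, with shares of 7.76% ± 2.66 (SD, n = 5) in KO and 6.24% ± 1.54 (SD, n = 6) in WT. Of the Penk exon bases 14.3% overlap A830012C17Rik on the other strand, and the libraries do not mark the strand, so reads of the 2 genes cannot be told apart there.

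**Figure D1:**
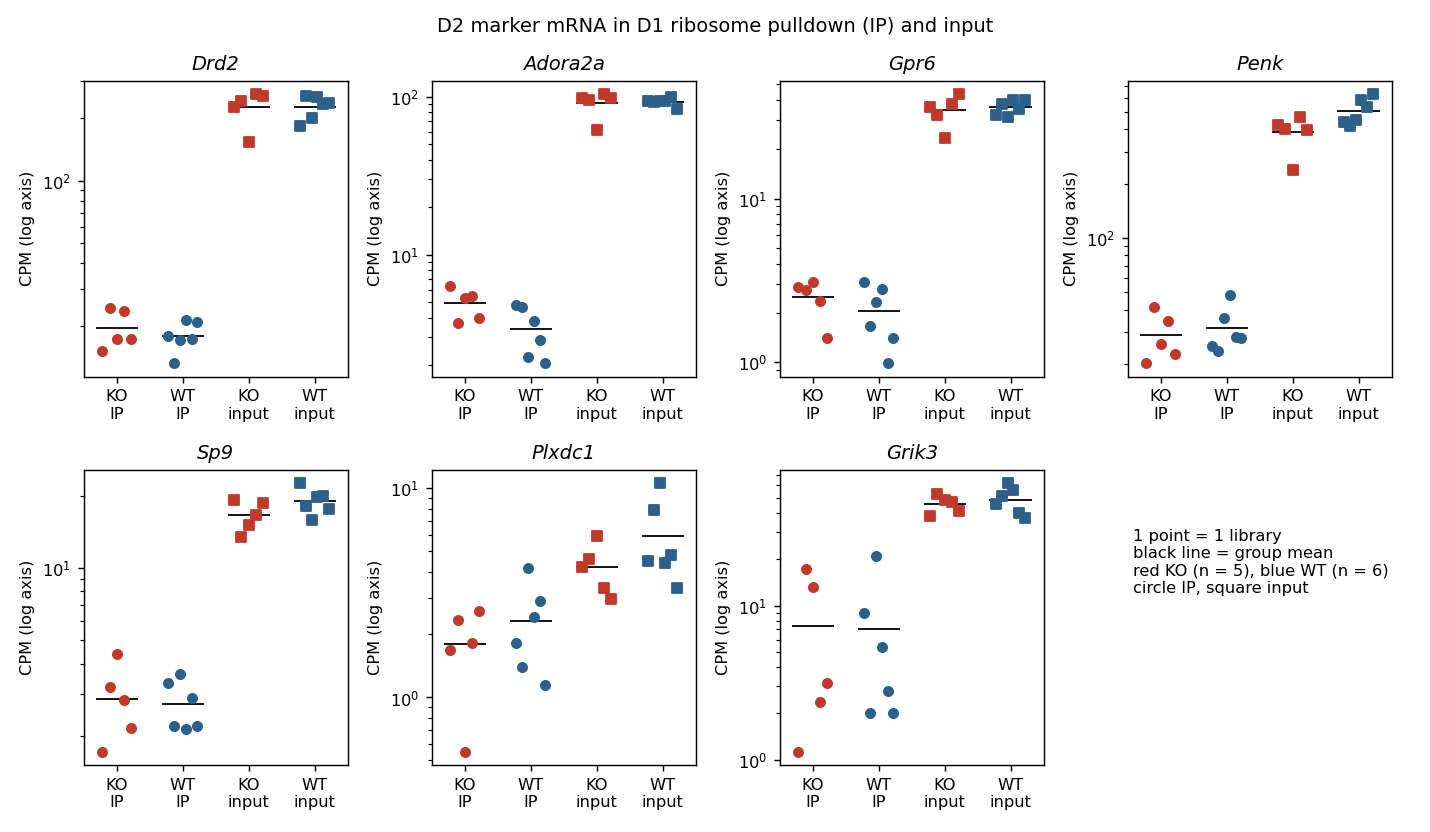
Level of each measured D2 marker in CPM (log axis) in every library, with KO in red, WT in blue, pulldowns as circles, inputs as squares and group means as black lines. Pulldowns lie below inputs in every panel except Plxdc1 in WT, where the highest pulldown (4.16 CPM) passes the lowest input (3.33 CPM).

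Sp9, on chromosome 2 from 73271925 to 73284706 (plus strand), encodes a zinc finger transcription factor needed for the formation of D2 neurons. It was low in all pulldowns, at 1.71, 3.21, 4.39, 2.81 and 2.15 CPM in KO animals 2, 3, 9, 10 and 11, and at 2.14 to 3.62 CPM with a median of 2.54 in WT. Input levels were 19.2, 13.4, 15.1, 16.6 and 18.7 CPM in KO, and 15.8 to 22.6 CPM with a median of 18.9 in WT. The pulldown and input ranges did not overlap. The log2 fold change was -2.54 ± 0.21 (SE) in KO and -2.81 ± 0.20 in WT, and the share of the input level was 18.1% ± 8.42 (SD, n = 5) in KO and 14.6% ± 4.31 (SD, n = 6) in WT. Of its exon bases 5.35% overlap Cir1 on the other strand.

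Plxdc1, on chromosome 11 from 97923238 to 97986444 (minus strand), encodes a transmembrane protein with a plexin-like domain. The pulldowns held 1.68, 2.36, 0.549, 1.82 and 2.58 CPM in KO animals 2, 3, 9, 10 and 11, and 1.15 to 4.16 CPM with a median of 2.13 in WT. Input levels were 4.20, 4.59, 5.90, 3.35 and 2.97 CPM in KO, and 3.33 to 10.6 CPM with a median of 4.64 in WT. It was the only member whose pulldown and input ranges overlapped, and they did so in WT. The log2 fold change was -1.24 ± 0.38 (SE) in KO (edgeR quasi-likelihood test, adjusted p = 0.00956) and -1.38 ± 0.35 in WT (adjusted p = 0.00178). The KO call rested on animal 9, whose pulldown had 15 reads: without it the log2 fold change was -0.85 (adjusted p = 0.0710), and without animals 1, 3, 9 and 12 it was -0.81 (adjusted p = 0.131). The pulldown held 48.4% ± 28.0 (SD, n = 5) of the input level in KO and 41.4% ± 15.4 (SD, n = 6) in WT.

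Grik3, on chromosome 4 from 125490700 to 125714173 (plus strand), encodes the GluK3 subunit of kainate receptors. In KO IP it stood at 1.13, 17.2, 13.1, 2.37 and 3.14 CPM in animals 2, 3, 9, 10 and 11, and WT IP ran from 2.005 to 21.1 CPM with a median of 4.09. The high KO pulldowns were those of animals 3 and 9, and the high WT pulldowns were animals 12 (21.1 CPM) and 1 (8.96 CPM), which are the same 4 animals that stood apart by Slc17a7. Input levels were even by comparison, at 38.3, 53.1, 48.1, 46.7 and 40.8 CPM in KO, and 36.9 to 62.1 CPM with a median of 48.5 in WT. The log2 fold change was -2.63 ± 0.67 (SE) in KO (edgeR quasi-likelihood test, adjusted p = 0.00321) and -2.86 ± 0.62 in WT (adjusted p = 0.000812). Without animals 1, 3, 9 and 12 it was -4.34 in KO and -3.89 in WT, near the values of the receptors. Most cortical markers moved with Grik3 in the pulldowns: in each genotype 9 of 12 were higher in both of its animals among these 4 than in any other. The 9 include Slc17a7, by which these animals stood apart. Without the abundant neurogranin gene Nrgn, but with Slc17a7, the list summed to 213 to 316 CPM in KO animals 3 and 9. The other KO pulldowns had 70.8 to 82.7 CPM. In WT it summed to 157 to 326 CPM in animals 1 and 12 against 88.0 to 110.1 CPM in the other pulldowns. Nrgn did not set the animals apart: it had 391 to 459 CPM in KO animals 3 and 9 against 427 to 522 CPM in the others. With Nrgn the list summed to 604 CPM in KO animal 3 and 593 CPM in KO animal 2. Lamp5 went the other way in WT, at 57.9 to 58.4 CPM in animals 1 and 12 against 73.6 to 92.1 CPM in the others. Emx1, a defining marker, had no read in the pulldowns of the other 7 animals. It was also near the floor in these 4, at 0.0856 to 0.988 CPM in KO and 0.542 to 0.746 CPM in WT. Astrocyte mRNA was also higher in these pulldowns: its 12 markers summed to 420 to 510 CPM in KO animals 3 and 9 against 151 to 227 CPM in the other KO pulldowns, with 7 of 12 higher in both. In WT they summed to 307 to 369 CPM in animals 1 and 12 against 200 to 235 CPM in the other pulldowns, with 1 of 12, Slc1a2, higher in both. Most of each sum was Slc1a2, at 318 to 416 CPM in KO animals 3 and 9 against 107 to 157 CPM in the other KO pulldowns. In WT it had 222 to 316 CPM in animals 1 and 12 against 153 to 175 CPM. Gfap was not higher in KO animals 3 and 9, at 0.512 to 1.97 CPM against 1.88 to 2.98 CPM. The part of cortical or astrocyte mRNA in the Grik3 values was not tested.

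With these 4 animals left out, 6 of 7 members were still called lower in KO pulldowns and 7 of 7 in WT pulldowns. Of all 17541 genes tested then, 7298 were called in either direction in KO and 7941 in WT. Plxdc1 in KO, with a log2 fold change of -0.81, did not pass. The median log2 fold change was then -4.05 in KO and -3.89 in WT.

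Over all animals the mean share of the input level kept in the pulldown ran, from low to high, in the order Adora2a, Penk, Gpr6, Drd2, Grik3, Sp9 and Plxdc1 in KO. In WT the order was Adora2a, Gpr6, Penk, Drd2, Grik3, Sp9 and Plxdc1. Each gene overlapped the next in the order in its range over animals, in both genotypes. The high share of Grik3, 15.1% ± 13.7 (SD, n = 5) in KO and 13.3% ± 11.5 (SD, n = 6) in WT, was 5.24% in KO and 6.53% in WT without animals 1, 3, 9 and 12. The order changed with it: without those animals Grik3 was the lowest in KO, next to Adora2a at 5.29%, and stood after Adora2a (3.61%), Gpr6 (4.45%) and Penk (5.92%) in WT. Drd2 then had 7.55% in KO and 7.50% in WT. Sp9 had 12.5% in KO and 12.5% in WT, and Plxdc1 60.4% in KO and 42.1% in WT. Adora2a and Grik3 did not move together between animals. KO animal 3 had the lowest Adora2a share of its genotype, 3.91%, and the highest Grik3 share, 32.4%. WT animal 12 likewise had 2.40% for Adora2a and 33.9% for Grik3. Other KO shares were more alike: animal 9 was highest for Drd2 (11.2%), Penk (10.7%), Gpr6 (13.2%), Sp9 (29.1%) and also Adora2a (8.58%). Its Plxdc1 share, 9.30%, was the lowest in KO. In WT animal 1 was highest for Drd2, Adora2a and Gpr6, animal 13 for Penk and animal 12 for Sp9.

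**Figure D2:**
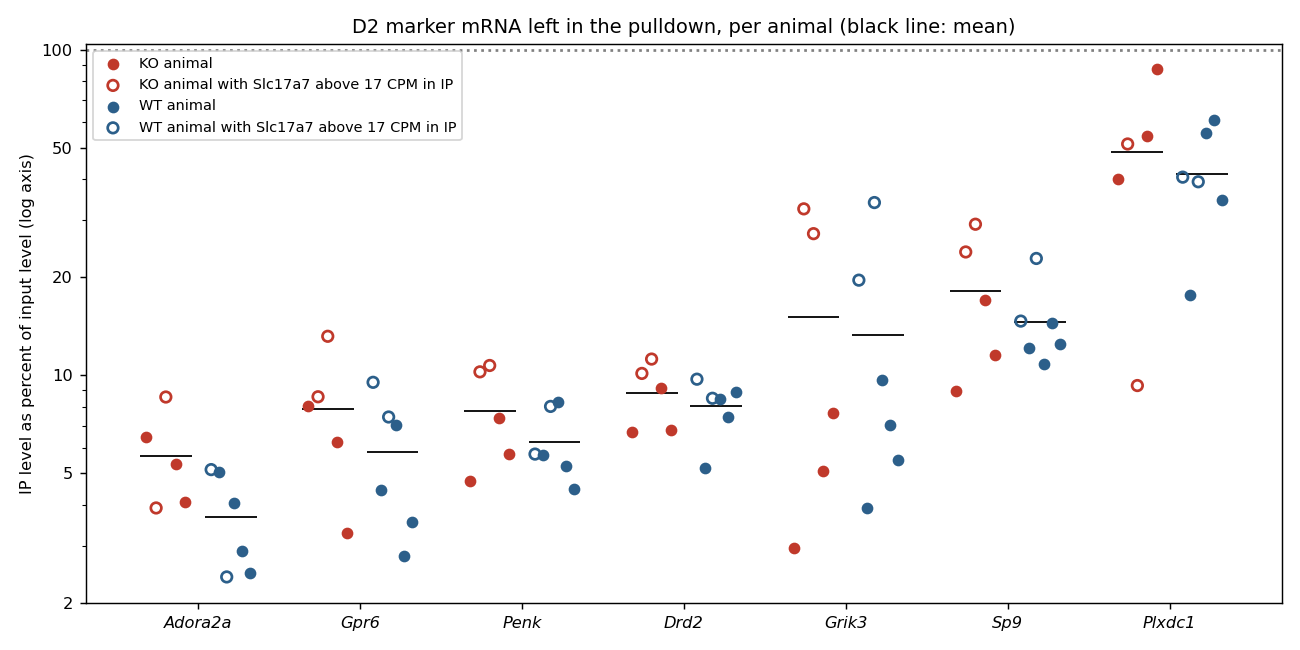
Pulldown level as a percent of the input level of the same animal (log axis) for each D2 marker, KO in red left of WT in blue, with open circles for animals 1, 3, 9 and 12 and black lines for group means. The open circles lie highest for Grik3, and the mean over all animals is lowest for Adora2a, at 5.67% in KO and 3.67% in WT.

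Levels were compared between genes only per kb of exon. In input Penk was highest, at 237 ± 53.4 CPM per kb (SD, n = 5) in KO and 311 ± 52.6 (SD, n = 6) in WT, with Drd2 next at 89.2 ± 16.9 in KO and 89.0 ± 11.2 in WT. Adora2a followed at 29.8 ± 5.46 CPM per kb in KO input and 30.3 ± 1.75 in WT input, and none of these 3 genes overlapped in range. Gpr6 had 19.4 ± 4.09 CPM per kb in KO input and 20.3 ± 2.04 in WT input, and overlapped Adora2a in KO but not in WT. Grik3 came next with 5.06 ± 0.658 in KO and 5.41 ± 1.08 in WT, then Sp9 with 3.29 ± 0.480 in KO and 3.76 ± 0.460 in WT, and these 2 genes overlapped in WT but not in KO. Plxdc1 was lowest with 0.869 ± 0.237 in KO and 1.22 ± 0.571 in WT. In the pulldown Penk, at 17.7 ± 5.42 CPM per kb in KO and 19.3 ± 5.64 in WT, and Drd2, at 7.69 ± 1.65 in KO and 7.05 ± 1.16 in WT, stayed above the other 5 genes without overlap. Adora2a, Gpr6, Grik3, Sp9 and Plxdc1 all had means under 2 CPM per kb there, and neighbours in their order overlapped.

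The D1 markers went the other way. All 10 listed D1 genes were higher in IP in both genotypes, where 20.9% of genes in KO and 21.8% in WT were called higher. Their median log2 fold change was 1.62 in KO and 1.28 in WT. All 12 markers shared by both classes were higher too, with medians of 0.83 in KO and 0.78 in WT. Per kb, Drd2 over Drd1 was 0.0497 in KO IP and 0.0440 in WT IP, against 1.76 in KO input and 1.43 in WT input. Penk over Pdyn was 0.495 in KO IP and 0.490 in WT IP, against 17.7 in KO input and 19.7 in WT input. In the pulldown the enkephalin precursor was thus below the dynorphin precursor in every animal, and in input it was above it in every animal.

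The share of D2 marker mRNA left in the pulldown was set beside that of glial, vascular and interneuron markers. Summed over the 7 genes, the pulldown held 5.79% to 12.7% of the input level in KO animals and 5.54% to 10.0% in WT animals. Penk averaged 387 CPM in KO input and 509 CPM in WT input, and Drd2 227 CPM in each. The input sums ran from 548 to 938 CPM in KO and 822 to 1050 CPM in WT, so the summed D2 share follows mostly Penk and Drd2. The 12 astrocyte markers held 5.85% to 13.4% in KO and 5.75% to 11.8% in WT. The 14 oligodendrocyte markers held 4.50% to 7.67% in KO and 4.49% to 6.45% in WT, and the 14 microglia markers 2.10% to 6.45% in KO and 5.05% to 9.63% in WT. All members of these 3 glial lists were lower in IP in both genotypes. The median log2 fold change of the D2 markers, -3.54 in KO and -3.65 in WT, lay near that of the astrocyte list, -3.69 in KO and -3.84 in WT. It was closer to 0 than that of the oligodendrocyte list, -5.02 in KO and -5.11 in WT, and of the microglia list, -5.91 in KO and -5.06 in WT. The 8 oligodendrocyte precursor markers were all lower in IP too, and held 6.84% to 20.1% of the input level in KO and 10.7% to 15.8% in WT. Endothelial markers held more, 26.6% to 50.1% in KO and 31.5% to 55.2% in WT, with 5 of 12 called lower in KO and 7 of 12 in WT. Interneuron markers were lower in 10 of 13 in KO and 12 of 13 in WT. The range of the D2 share overlapped those of the astrocyte, oligodendrocyte, microglia and interneuron lists in both genotypes, and no test of these differences was made.

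Within KO the D2 and astrocyte shares were highest in the same animals. Animal 9 was highest, with a D2 share of 12.7% and an astrocyte share of 13.4%. Next was animal 3, with 11.3% for D2 and 12.1% for astrocyte markers. The D2 share was lowest in animal 2, at 5.79%, where the astrocyte share was 5.85%. In WT the D2 share was highest in animal 12, at 10.0%, then in animal 13 at 8.21% and animal 1 at 7.91%, while the astrocyte share was highest in animal 1, at 11.8%, then in animal 12 at 11.5%. The summed D2 input level of animal 9, 548 CPM, was the lowest in KO. Its D2 pulldown sum, 69.4 CPM, lay below those of animals 3 (95.1 CPM) and 10 (73.3 CPM). Its shares for the D1 (303%), shared (229%) and interneuron (20.6%) lists were the highest in KO too. In WT animal 12 was also highest for the D1 (246%) and shared (193%) lists. Animals 9 and 3 in KO and 12 and 1 in WT are those that stood apart by cortical mRNA. Without them the D2 share ran from 5.79% to 7.82% in KO and 5.54% to 8.21% in WT, and the astrocyte share from 5.85% to 7.72% in KO and 5.75% to 7.42% in WT. The 12 astrocyte markers summed to 151 to 510 CPM in KO IP and 200 to 369 CPM in WT IP. Slc1a2 alone had 107 to 416 CPM in KO IP and 153 to 316 CPM in WT IP, so the astrocyte share follows mostly this gene. Agt had no read in 1 KO pulldown and 2 WT pulldowns, and Gjb6 in 1 WT pulldown. The part of glial mRNA in the D2 values was not tested, and whether the D2 reads in the pulldown came from tagged ribosomes was not tested.

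**Figure D3:**
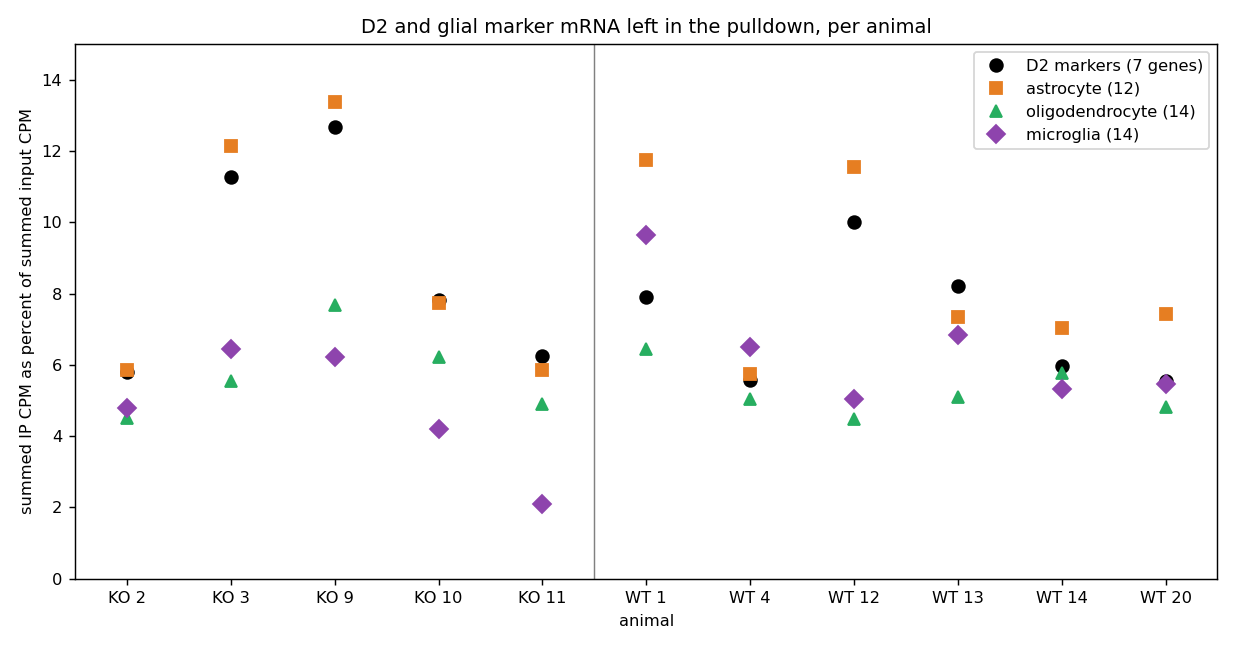
Summed pulldown CPM as a percent of summed input CPM in each animal, KO left of WT, for D2 markers (black), astrocyte (orange), oligodendrocyte (green) and microglia (purple) lists. D2 markers span 5.79% to 12.7% in KO and 5.54% to 10.0% in WT, overlapping each glial list.

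Among the genes whose profile over the 22 libraries lay closest to the mean of Drd2, Adora2a and Penk, out of 8502 other genes with a mean input level of at least 10 CPM, were Cnp, Tspan2, Mt2 and Gstm1. Closeness was the root mean square difference of centred log2 CPM, which was 0.24 for Cnp and 0.28 for Gstm1. Cnp and Tspan2 are known as genes of myelinating cells, Mt2 encodes a metallothionein and Gstm1 a glutathione transferase. Cnp had a log2 fold change, IP over input, of -3.96 ± 0.12 (SE) in KO and -4.08 ± 0.11 in WT. By the same measure Gpr6, which had no part in that mean, ranked 13 of 8508 genes, Sp9 209 and Grik3 393. The profiles share the pulldown contrast and the depth of each library, and the likeness is given as a description.

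The listed relatives of the D2 markers were tested in the same fit, and 18 of 19 passed the filter on low counts. In KO 4 were higher and 6 lower in IP, and in WT 8 were higher and 6 lower, with median log2 fold changes of -0.06 in KO and 0.11 in WT. Over all genes 20.9% were called higher and 26.4% lower in KO, and 21.8% higher and 27.8% lower in WT. Drd1 had a log2 fold change of 1.61 ± 0.12 (SE) in KO and 1.37 ± 0.11 in WT, and Pdyn of 1.38 ± 0.19 in KO and 1.30 ± 0.18 in WT. Gpr12, a close relative of Gpr6 that also raises cAMP, was higher in IP, at 0.97 ± 0.14 in KO and 0.87 ± 0.13 in WT. Each of these 3 genes thus lay on the other side of the pulldown from its D2 relative.

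Adora1, the A1 adenosine receptor, had a log2 fold change of 0.28 ± 0.12 (SE) in KO (edgeR quasi-likelihood test, adjusted p = 0.0583) and was higher in WT IP at 0.33 ± 0.11 (adjusted p = 0.0144). Of the kainate receptor genes, Grik2 was higher in IP, at 0.30 ± 0.10 in KO and 0.38 ± 0.09 in WT. Plxdc2 was lower, at -1.39 ± 0.22 in KO and -0.85 ± 0.20 in WT, close to Plxdc1. The remaining relatives called lower in both genotypes, namely Drd5, Adora2b, Adora3, Sp8 and Grik1, averaged at most 2.26 CPM in any group, and Adora3 had no read in WT IP. Drd4 did not pass the filter.

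**Figure D4:**
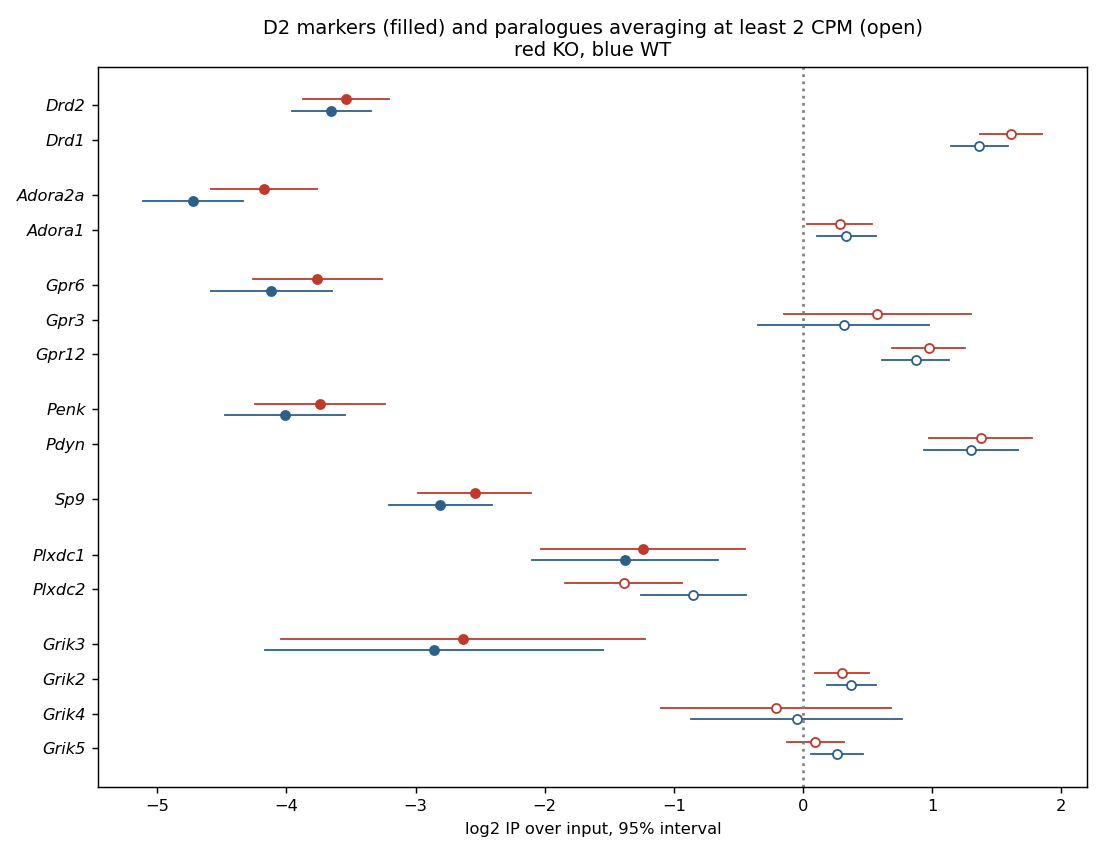
Log2 fold change of IP over input with its 95% interval for the 7 D2 markers (filled circles) and their relatives that averaged at least 2 CPM (open circles, without Gpr21, a relative of Gpr52), KO in red and WT in blue. Drd1, Gpr12 and Pdyn lie right of 0, while Drd2, Gpr6 and Penk lie between -4.12 and -3.54.

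A list of 24 genes covered enkephalin processing, opioid receptors, adenosine supply and signalling by the D2 and A2A receptors. Of these, 14 were higher and 5 lower in IP in each genotype, where 20.9% of all genes in KO and 21.8% in WT were higher and 26.4% in KO and 27.8% in WT were lower. Gnal, Gng7, Adcy5, Rgs9, Ppp1r1b and Pde10a are also among the markers shared by both classes, all of which were higher in IP. The median log2 fold change was 0.43 in KO and 0.37 in WT, against -0.11 over all genes. Pde10a, the cAMP and cGMP phosphodiesterase of striatal projection neurons, was at 1.32 ± 0.11 (SE) in KO and 1.14 ± 0.10 in WT. Gnal, the Golf subunit through which Adora2a acts, was at 0.94 ± 0.09 in KO and 0.77 ± 0.08 in WT. On the lower side, Nt5e, the ectoenzyme that makes adenosine from AMP, was at -2.89 ± 0.33 in KO and -3.85 ± 0.32 in WT, and Gnai2, an inhibitory G protein subunit, at -1.31 ± 0.12 in KO and -1.34 ± 0.11 in WT. The direction of 14 of these 24 genes was thus opposite to that of the D2 markers.

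Of the 14 protein-coding genes nearest to the members on the chromosome 11 passed the filter, and 5 were lower and 3 higher in IP in each genotype, with median log2 fold changes of -0.19 in KO and -0.04 in WT. The shares over all genes were those given for the relatives, 26.4% lower and 20.9% higher in KO, and 27.8% lower and 21.8% higher in WT. Specc1l, which lies 4133 bases from Adora2a, had -0.33 ± 0.11 (SE) in KO and -0.34 ± 0.10 in WT. Wasf1, the neighbour of Gpr6 on the lower coordinate side, was higher in IP at 1.07 ± 0.10 in KO and 0.94 ± 0.09 in WT. Ankk1, 7016 bases from Drd2, was lower at -4.09 ± 0.71 in KO and -2.78 ± 0.60 in WT, on low counts.

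KO was compared with WT within each assay to ask whether loss of FMRP changed D2 marker levels. In IP none of the 7 genes passed (edgeR quasi-likelihood test with Benjamini-Hochberg adjustment over 14456 genes), where 0.0553% of all genes did. None had an unadjusted p under 0.05. DESeq2 gave an adjusted p for 4 of them (Drd2, Adora2a, Penk and Grik3), and none passed. The log2 fold changes, KO over WT, were positive for 5 and negative for 2, with a median of 0.10 against 0.00 over all genes. Adora2a had the largest, 0.55 (95% interval -0.01 to 1.10, adjusted p = 0.671), and the interval for Drd2 was -0.20 to 0.45. The authors' deposited table, which runs as WT over KO, gave an unshrunken log2 fold change of -0.54 for Adora2a in IP (-0.27 shrunken) with an unadjusted p of 0.0397 and an adjusted p of 0.455.

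In input none of the 7 passed the same test, where 0.0183% of 16429 genes did, and none passed in DESeq2. All 7 log2 fold changes, KO over WT, were negative with TMM scaling (6 of 7 with RLE scaling and in DESeq2), with a median of -0.10, and Drd2 was close to 0 with an interval of -0.25 to 0.25. The sign of several depended on which animals were used: without animals 1, 3, 9 and 12 there were 4 negative and 3 positive, with a median of -0.05. Penk was the 1 member with an unadjusted p under 0.05, at -0.40 ± 0.15 (95% interval -0.72 to -0.07, adjusted p = 0.625), and its KO and WT ranges overlapped. Without KO animal 9, which had 240 CPM, its log2 fold change was -0.26. The authors' deposited table, WT over KO, gave an unshrunken log2 fold change of 0.40 for Penk in input (0.31 shrunken) with an unadjusted p of 0.00993 and an adjusted p of 0.410. The D1 list and the shared list also had negative log2 fold changes in input for 10 of 10 and 12 of 12 genes, with medians of -0.27 and -0.21 and no gene called. The astrocyte list had positive values for 9 of 12 genes (median 0.20), the oligodendrocyte list for 11 of 14 (median 0.11) and the cortical list for 7 of 9 tested (median 0.52). Their part in the D2 values was not tested.

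Whether depletion in the pulldown differed by genotype was tested as the interaction, the log2 fold change of IP over input in KO minus that in WT. None of the 7 genes passed, and neither did any other of the 17311 tested (0%), with 710 at an unadjusted p under 0.05 and 5 called by DESeq2. All 7 values were positive in the fit over all animals, with a median of 0.27 against 0.00 over all genes. Positive values were also found for 8 of 10 D1 genes (median 0.18) and 11 of 12 shared genes (median 0.12). Adora2a was the 1 member with an unadjusted p under 0.05, at 0.55 ± 0.25 (95% interval 0.04 to 1.06, edgeR quasi-likelihood adjusted p = 1.00). Without animals 1, 3, 9 and 12 there were 5 positive values with a median of 0.02. The intervals were wide for Plxdc1 (-0.92 to 1.20) and Grik3 (-1.60 to 2.05) and reached past 1 log2 unit.

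**Figure D5:**
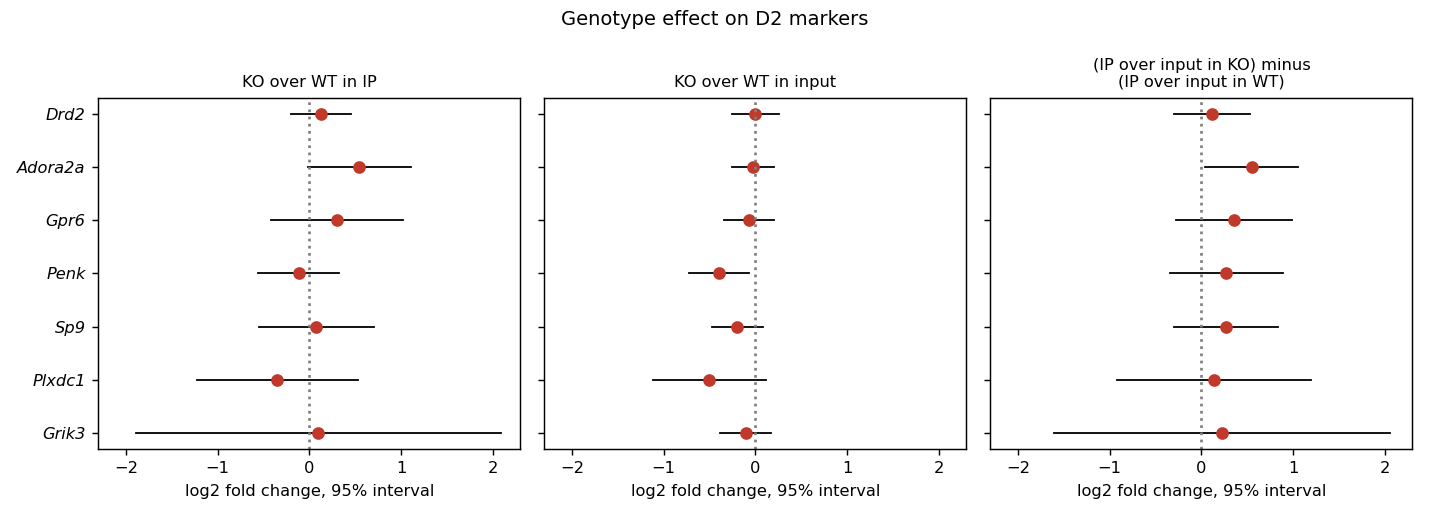
Log2 fold change of KO over WT in IP, of KO over WT in input, and the difference in IP over input between KO and WT, for each D2 marker with its 95% interval. The interval leaves out 0 for Penk in input (-0.72 to -0.07) and for Adora2a in the difference (0.04 to 1.06), and neither passed after adjustment.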

How the data were processed

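RNA from IP and input of 5 KO and 6 WT striata was sequenced without strand information and in 1 batch, per the labels' protocols. The deposited values are raw counts for each gene symbol, made with STAR and featureCounts on mm10 per the submitters' processing notes, versions not given in the sources used here. Per the file headers, the authors' deposited genotype tables hold log2 fold changes and p-values, WT over KO as the sign of Fmr1 shows, with DESeq2 named in the processing notes.

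From the counts, edgeR 4.0.16 in R 4.3.3 (TMM, filterByExpr, robust quasi-likelihood test, 2-sided, Benjamini-Hochberg over all genes tested, 0.05) compared KO with WT in the 11 IP and the 11 input libraries, and IP with input, with the interaction, over all 22. The SE is the absolute log2 fold change over the square root of F. Shares are IP CPM over the input CPM of the same animal. Log2 CPM used a prior count of 2. Exon lengths and overlaps came from GENCODE vM21. Alternatives were RLE scaling, no filter, DESeq2 1.42.0, mt-Rnr1 and mt-Rnr2 left out, animal as a block, and animals left out. The KO against WT fits and the interaction were tried on simulated counts with the same dispersion for every gene. The outcome is not reported here, and the IP against input comparisons were not tried in this way.

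The animal number pairs each IP with its input: deviations from the group means correlated in 11 of 11 pairs (r = 0.188 to 0.472). Libraries of a group differed beyond sampling noise in all 50 pairs (lowest chi-square 15.6 per degree of freedom).

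The members, gene lists and tests were chosen with earlier results of these data known. The text names each member, the listed relatives with the clearest counts, chromosomal neighbours, 4 signalling genes by p, 4 of the 5 closest profiles (the other is not reported here) and Fmr1. Slc17a7, other cortical and astrocyte markers, and the limit of 2 CPM for drawn relatives were chosen after their values were seen.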

Additional observations from a re-analysis of the deposited data

Results flagged for a closer look

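Of 42 sets of values examined for a library far from its group, 3 were picked out, and chance alone picks about 1 in 20. Adora2a in KO input was lowest in animal 9, at 61.84 CPM, with the next library at 95.19 CPM. Animal 9 was also the lowest KO input library for Drd2, Penk and Gpr6. The same held for the summed D1 list, at 746 CPM, and the summed shared list, at 5782 CPM, so the low input was not particular to D2 markers. Its Slc17a7 level was the highest of the KO inputs, at 113.2 CPM. The Sp9 share of the input level in WT was highest in animal 12, at 22.84%, with the next animal at 14.67%. Grik3 in WT IP was also highest in animal 12, at 21.06 CPM, with animal 1 next at 8.957 CPM. Slc17a7 stood at 68.0 CPM in the pulldown of animal 12, and its part in these values was not tested.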

How the results depend on the processing

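The D2 markers kept their direction in the pulldown, and their call, under each alternative run, except that Plxdc1 in KO lost its call without animal 9 and without animals 1, 3, 9 and 12. Leaving these 4 animals out of the shares was chosen after seeing the data, and the mean Grik3 share was then 5.24% in KO and 6.53% in WT, against 15.1% in KO and 13.3% in WT with them. With 1 animal left out at a time the number of members called was 6 to 7 in KO and 7 in WT. Over all genes, 17087 to 17819 tested, 7345 to 8325 were then called in KO and 7661 to 8923 in WT. With animal as a replicate block the median log2 fold change of the members was -3.54 in KO and -3.65 in WT, and the block changed no call of a member. No genotype or interaction fit called a member under any alternative, but DESeq2 gave no adjusted p for Gpr6, Sp9 and Plxdc1 in KO against WT in IP. Counts over all genes were less stable. For KO against WT in IP, 8 genes were called by edgeR, 65 by DESeq2 and 4 to 8 with 1 animal left out. In input the count was 3 by edgeR, 5 with no filter, 28 by DESeq2, 7 without animals 1, 3, 9 and 12, and 2 to 7 with 1 animal left out (7 without animal 12). For the interaction it was 0 by edgeR, 5 by DESeq2 and 0 to 2 with 1 animal left out. The cause was not tested. Depth limits Plxdc1 and Gpr6 most, with 15 to 174 and 23 to 295 reads in a pulldown.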
